A study of Mus musculus with 12 samples.

Results

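The genes described here are 9 components of the DNA damage checkpoint and of recombination repair, *Atm*, *Atr*, *Chek1*, *Chek2*, *Brca1*, *Brca2*, *Trp53bp1*, *Mdc1* and *Nbn*. They were chosen by name, and every probe set whose annotation gives 1 of these symbols alone was taken. That made 24 of the 45037 probe sets tested and 9 of the 18193 genes with such a probe set. *Trp53bp1* has 6 of the probe sets, *Chek1* 5, *Brca1* 4, *Atr* 3, *Atm* 2, and *Brca2*, *Chek2*, *Mdc1* and *Nbn* 1 each. Expression was measured on 12 Affymetrix mouse arrays, with 6 groups of 2. The groups are *Terc*-/- (KO) and WT mouse embryonic stem (ES) cells, both on the C57BL/6 background, at day 0 as undifferentiated cells and at days 8 and 15 of differentiation as embryoid bodies formed in hanging drops without LIF and then plated. *Terc* encodes the RNA template of telomerase, and its loss shortens telomeres over generations. The day 0 labels put the KO cells at generation G3/4. At day 0 each array is a separate line, with the KO lines F35 and A49 taken at passage 11 and the WT lines N12 and N33 at passage 12. No label names the lines behind the later arrays, so p-values measure only the spread between these samples. *Terc* itself was not analysed here, since no probe set carries its symbol alone, and the genotype rests on the labels.

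When DNA breaks, or when a telomere becomes too short to keep its protective cap, the exposed end is read as damage. ATM is the kinase activated at double-strand ends by the complex that contains NBN, and ATR is the kinase activated by single-stranded DNA, as at stalled replication forks. They phosphorylate the checkpoint kinases CHK2 and CHK1, which halt the cell cycle. MDC1 and the product of *Trp53bp1* gather on the chromatin around the break, and BRCA1 and BRCA2 direct repair toward homologous recombination. ES cells cycle fast, spend little time in G1 and rely heavily on recombination and on ATR with CHK1. Most of this signaling is by phosphorylation, which an expression array does not read.

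The RNA of these genes differed little between KO and WT cells. At day 0, 0 of the 24 probe sets passed limma's test at an adjusted p under 0.05, where 0.0488% of all probe sets did, and 3 had an unadjusted p under 0.05. At day 8 again 0 of 24 passed, against 1.13% of all probe sets, and 2 had an unadjusted p under 0.05. At day 15, when 12.9% of all probe sets passed, 1 of the 24 did, the brightest probe set of *Atr*, which was higher in KO cells, and 7 had an unadjusted p under 0.05. Of all 45037 probe sets, 3870, 6254 and 11823 had an unadjusted p under 0.05 at days 0, 8 and 15. None of the 24 probe sets reached a 1.8-fold ratio of the group means, in KO against WT cells at any day or in day 15 against day 8 in either genotype. The median log2 difference over the 24 was -0.09 at day 0, -0.10 at day 8 and 0.02 at day 15, against 0.04, 0.03 and 0.04 over all probe sets. These medians weigh a gene by its number of probe sets. With the brightest probe set of each of the 9 genes alone, they were -0.08, 0.06 and 0.26. Over the brightest probe sets of all genes, they were 0.04, 0.03 and 0.04. The 95% interval of a log2 difference, which is not adjusted over probe sets, reached between 0.26 and 0.51 to each side. Smaller differences could not be seen with 2 arrays a group. Larger ones could also miss the adjustment, such as *Chek2* at 0.52 at day 15 (adjusted p = 0.0788 in limma).

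**Figure D1:**
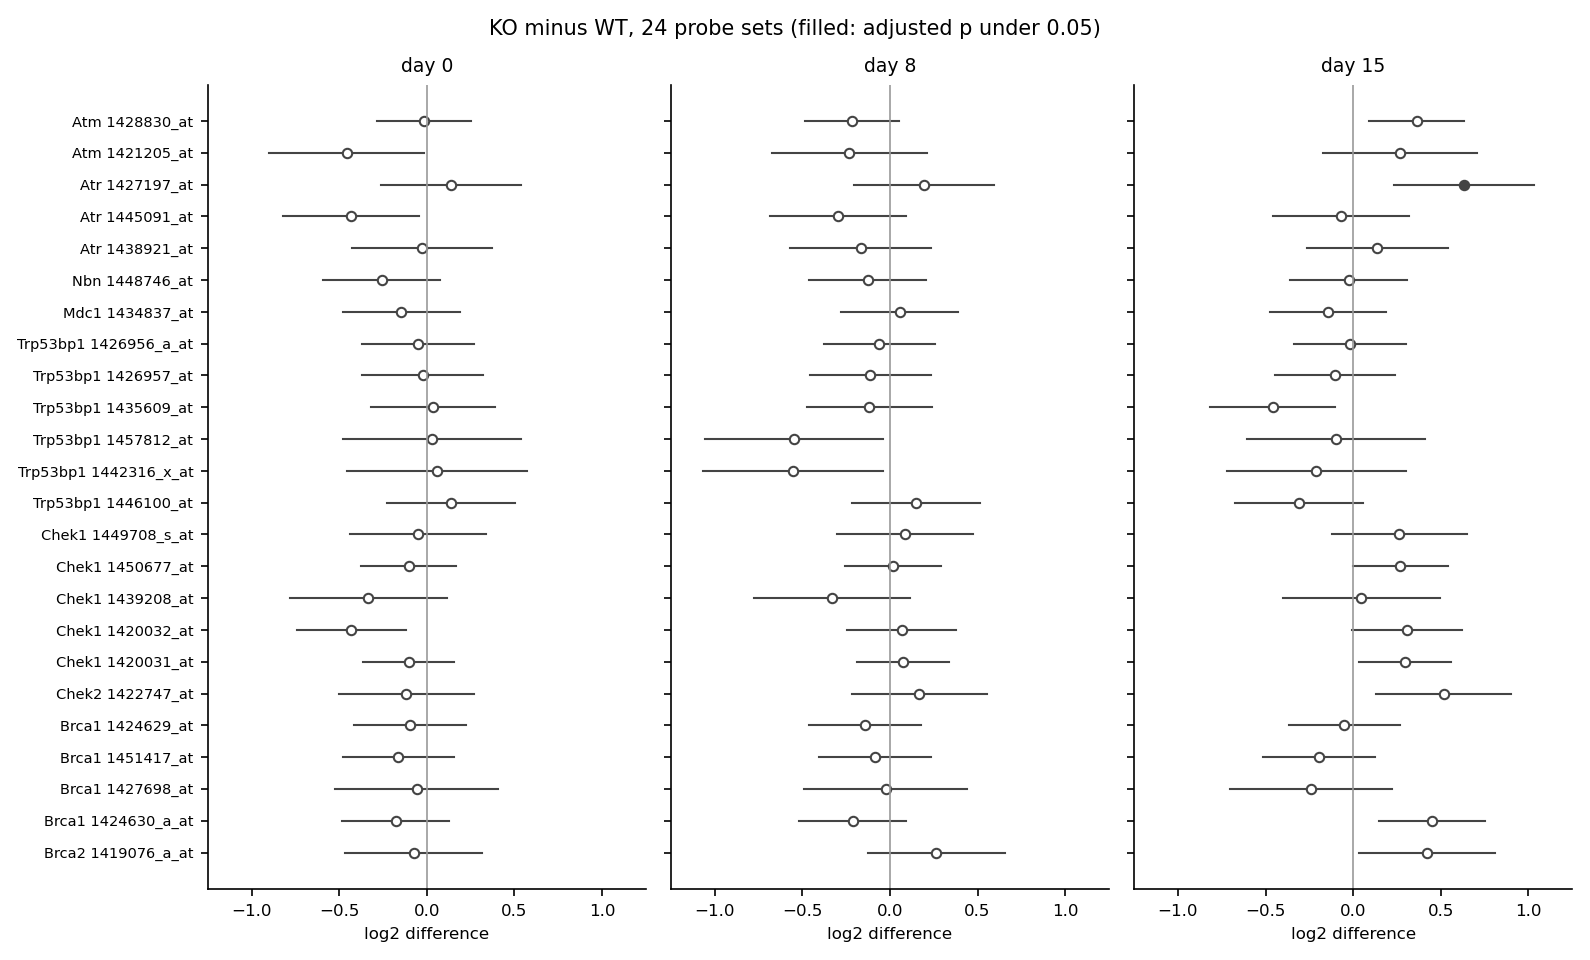
Log2 difference of KO minus WT cells (x axis) for each of the 24 probe sets (rows) at days 0, 8 and 15, with 95% intervals from limma; filled points have an adjusted p under 0.05. At day 15 the *Atr* probe set at 0.63 is the only filled point, and the others lie between -0.46 and 0.52.

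Between days 8 and 15, the counts of these genes stood near the share over all probe sets in each genotype. In WT cells 4 of the 24 probe sets, 2 of *Atm* and 1 each of *Chek1* and *Brca1*, were lower at day 15 than at day 8 at an adjusted p under 0.05 in limma, while 0 were higher, where 16.0% of all probe sets passed in either direction. In KO cells 0 of 24 passed, where 0.02% of all probe sets, 9 in number, passed. At an unadjusted p under 0.05 there were 3 of the 24 and 4847 of all 45037 probe sets. With the spread taken only from the arrays compared, 0 of 24 passed in KO cells and 0 in WT cells, and over all probe sets the order turned, with 2.83% called in KO cells and 0.815% in WT cells. The test of the difference itself, the KO change minus the WT change, passed for 0 of 24 and for 0.422% of all probe sets. At an unadjusted p under 0.05 there were 2 of the 24 and 5425 of all 45037 probe sets. The lowest adjusted p among the 24 was 0.199 in limma. The difference was positive for 19 of the 24, with a median of 0.22 against 0.00 over all probe sets. The median change was -0.05 in KO cells and -0.29 in WT cells, against -0.01 and 0.00 over all probe sets. The WT median and that of the difference in the change depended on the WT arrays of day 8. Without WT day 8 replicate 1, the median WT change was -0.05 and the median difference in the change 0.02, with 13 of 24 positive. Without WT day 8 replicate 2, they were -0.41 and 0.37, with 21 of 24 positive. The comparison at day 15 and the change in WT cells share the WT day 15 arrays, and the change in WT cells shares the WT day 8 arrays with the comparison at day 8.

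**Figure D2:**
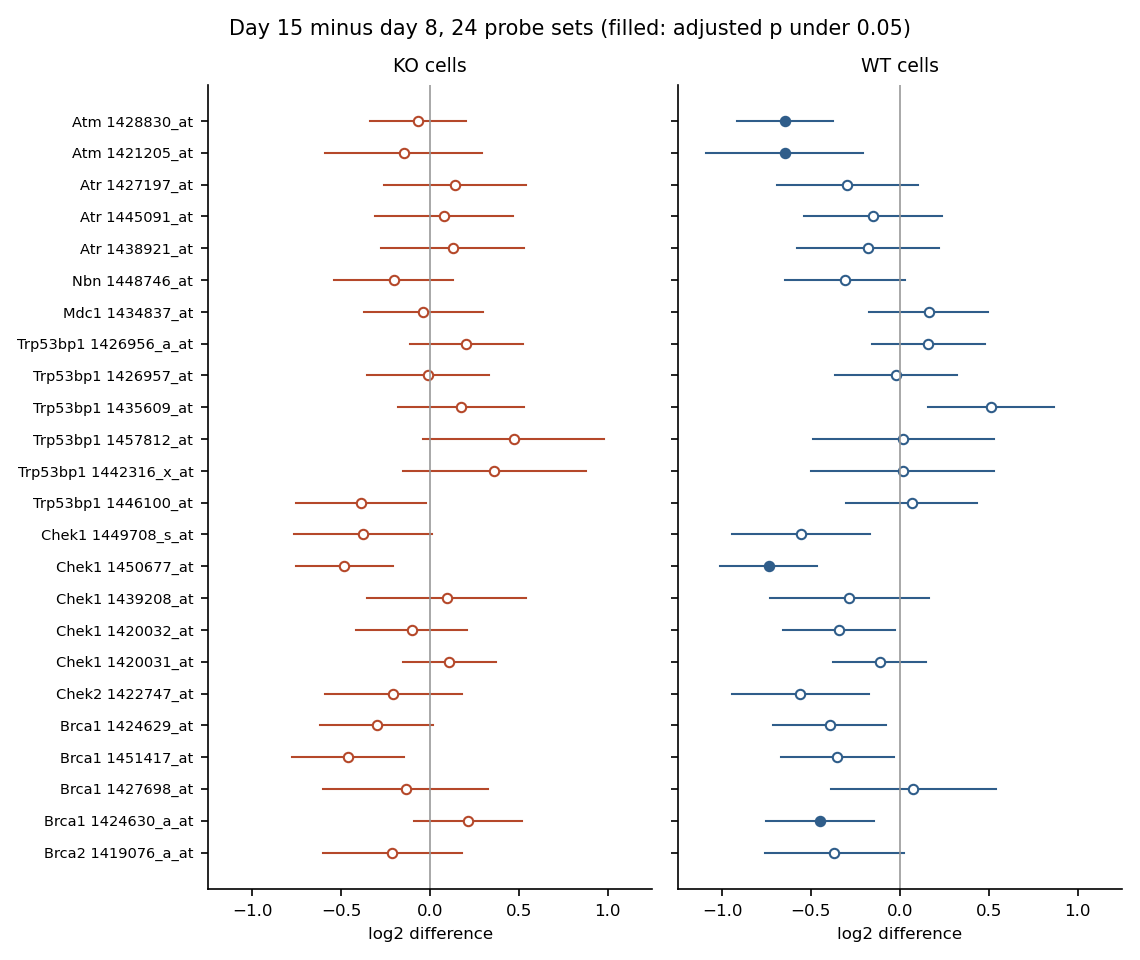
Log2 difference of day 15 minus day 8 (x axis) for each of the 24 probe sets (rows) in KO cells and in WT cells, with 95% intervals from limma; filled points have an adjusted p under 0.05. The 4 filled points are all in WT cells, between -0.74 and -0.45.

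At day 15 both KO arrays lay above both WT arrays for 10 of the 24 probe sets and below both for 4, where 54.2% of all probe sets had groups that did not overlap. The same held at day 0 for 1 above and 10 below (47.9% of all) and at day 8 for 0 above and 5 below (43.5%). Over all 45037 probe sets, 13279 lay above and 8308 below at day 0. These counts were 11561 and 8019 at day 8, and 13891 and 10539 at day 15. Both day 15 arrays lay above both day 8 arrays for 5 of 24 in KO cells and below for 9 (46.7% of all), and for 1 and 13 of 24 in WT cells (51.0%). Over all probe sets, 9881 lay above and 11173 below in KO cells, and 11504 and 11485 in WT cells.

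Arrays of day 0 differ from the later ones in the distribution of their intensities. Array medians were 117 for both KO arrays and 114 for both WT arrays at day 0, and between 50.6 and 53.1 at days 8 and 15. Lower quartiles were 54.4 to 56.3 at day 0 and 19.1 to 20.7 later. Maxima were 20085 to 20573 at day 0 and 21368 to 22080 later, so no single factor relates the 2 sets of arrays. No test therefore crosses day 0 and a later day, and intensities of day 0 cannot be set against later ones. Each gene was read from its brightest probe set, the one with the highest mean log2 intensity, and values of the others are given beside it in part. Between 6 and 8 of the 24 probe sets lay under the array median on both arrays of a group, and all 9 brightest probe sets lay above it on all 12 arrays. Intensities of different probe sets depend on the probes and are not compared with each other.

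The promoters of the genes are given as sequence context, apart from the calls, since none of the 3 genes with an E2F word passed in any comparison with all 12 arrays and all probe sets in the fit. RefSeq promoters of GRCm38.p6 were matched for 8 of the genes, *Nbn* being the exception, and the 250 bases before the start were searched on both strands, as were those of all 32851 promoters of the table. The words bound by E2F factors, which drive genes of DNA replication, were taken as TTTCCCGC, TTTCGCGC, TTTGCCGC and TTTGGCGC. At least 1 of them was found in 3 of the 8 promoters, those of *Brca2*, *Chek2* and *Mdc1*, and in 1.86% of all promoters. The CCAAT box, CCAAT, was found in 4 of 8, those of *Atm*, *Brca1*, *Chek2* and *Mdc1*, and in 33.8% of all. The cell cycle homology region, TTTGAA or TTCGAA, was found in 1 of 8, that of *Atr*, and in 17.1% of all. The CCAAT and E2F matches of *Chek2* and *Mdc1* did not overlap. A match is a description of letters and not a binding site. The stretches around the E2F word, in capitals, are given 5′ to 3′ on the strand of the gene because this word is the rarest of those searched, for *Chek2* (chr5:110839791-110839878, plus strand), *Brca2* (chr5:150522413-150522500, plus strand) and *Mdc1* (chr17:35841442-35841497, plus strand).
Chek2: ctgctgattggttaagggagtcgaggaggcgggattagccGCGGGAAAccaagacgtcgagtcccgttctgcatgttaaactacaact
Brca2: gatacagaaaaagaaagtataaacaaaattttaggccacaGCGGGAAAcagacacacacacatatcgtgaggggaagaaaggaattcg
Mdc1: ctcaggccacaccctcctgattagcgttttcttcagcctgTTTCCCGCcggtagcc

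The word lay 152 to 145 bases before the start of *Chek2*, 168 to 161 before that of *Brca2* and 16 to 9 before that of *Mdc1*. In the first 2 it was read as its reverse complement. For *Atm* (chr9:53536672-53536921, minus strand) and *Atr* (chr9:95857347-95857596, plus strand), the genes whose brightest probe set passed a test, the whole 250 bases are given, with the CCAAT box of *Atm* (as its reverse complement, 165 to 161 bases before the start) and the cell cycle homology region of *Atr* (215 to 210 bases before the start) in capitals.
Atm: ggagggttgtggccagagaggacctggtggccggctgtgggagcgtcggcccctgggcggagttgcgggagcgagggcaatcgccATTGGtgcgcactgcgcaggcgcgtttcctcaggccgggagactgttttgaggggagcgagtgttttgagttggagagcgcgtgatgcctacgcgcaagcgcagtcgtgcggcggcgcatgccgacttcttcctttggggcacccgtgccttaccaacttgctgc
Atr: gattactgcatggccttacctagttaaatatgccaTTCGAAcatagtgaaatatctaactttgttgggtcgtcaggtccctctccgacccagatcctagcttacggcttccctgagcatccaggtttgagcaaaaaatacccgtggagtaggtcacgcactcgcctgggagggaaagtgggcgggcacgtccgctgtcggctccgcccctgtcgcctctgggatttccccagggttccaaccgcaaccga

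**Figure D3:**
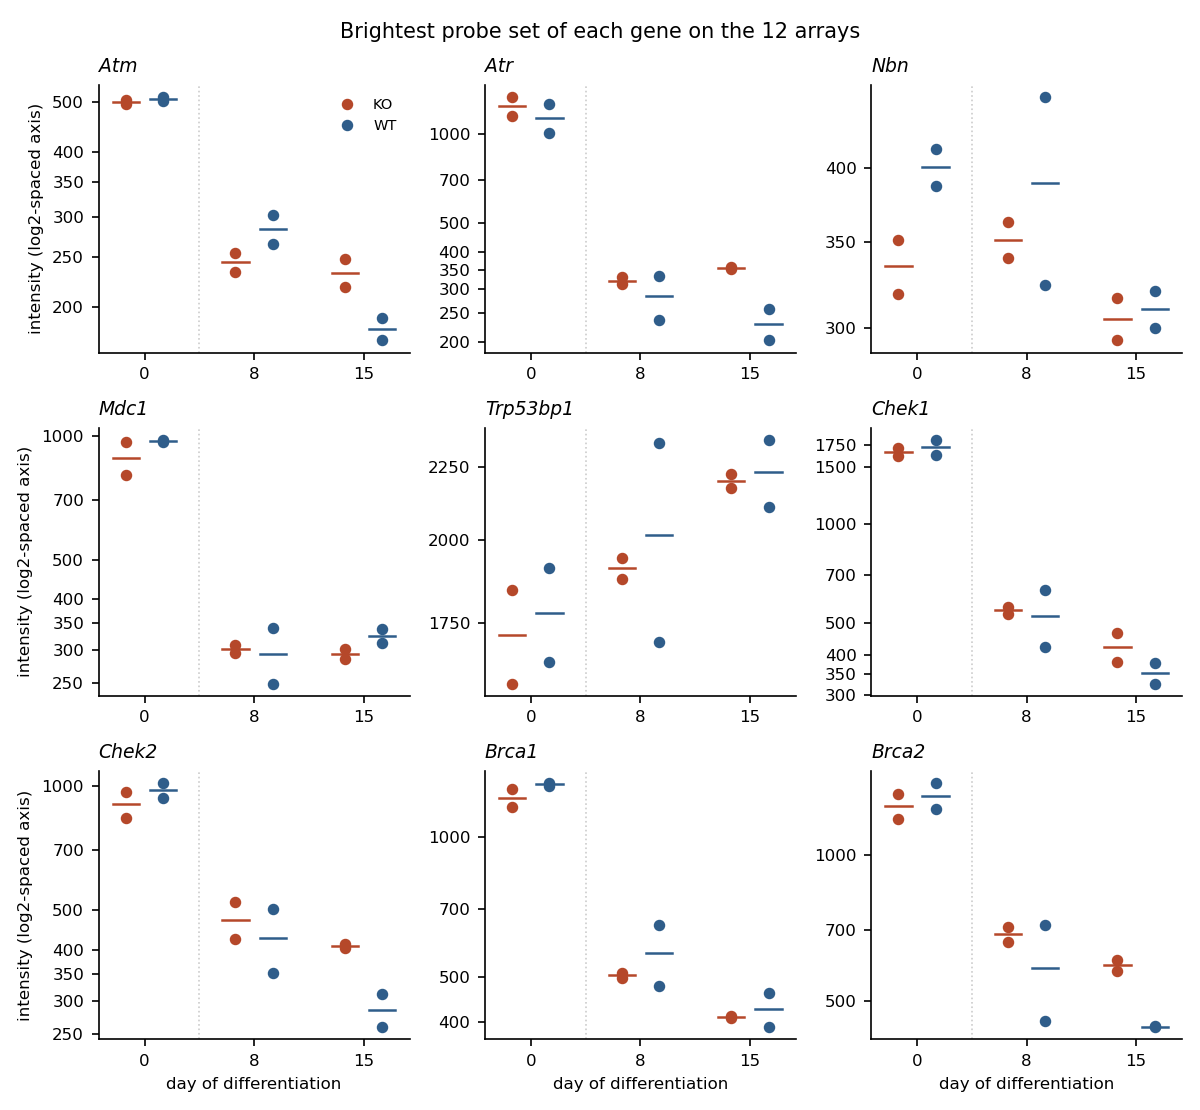
Intensity (log-spaced y axis, a scale of its own in each panel) of the brightest probe set of each gene by day of differentiation (x axis). Points are arrays, and short lines are means of the 2 arrays. A dotted line parts day 0, whose arrays have another distribution of intensities. At day 15 both KO arrays lie above both WT arrays for *Atm*, *Atr*, *Chek1*, *Chek2* and *Brca2*.

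*Atm*, the kinase of double-strand breaks, fell in WT cells between days 8 and 15 on both its probe sets. At day 0, *Atm* read 506 and 496 in KO cells, against 513 and 502 in WT cells. At day 8, *Atm* read 255 and 234 in KO cells, against 302 and 266 in WT cells. At day 15, *Atm* read 219 and 248 in KO cells, against 190.4 and 173 in WT cells. Both KO arrays were below both WT arrays at day 8 and above both at day 15. The log2 difference of KO minus WT cells was -0.22 (SE 0.12, adjusted p = 0.474) at day 8 and 0.36 (SE 0.12, adjusted p = 0.0788) at day 15 in limma, and neither passed. The fall in WT cells to day 15 passed, at -0.65 (SE 0.12, adjusted p = 0.00497), and the KO difference was -0.07 (SE 0.12, adjusted p = 0.895). The difference between the genotypes in this change was 0.58 (SE 0.17, adjusted p = 0.203), which did not pass the adjustment over all probe sets. The second probe set read 185 and 209.6 in KO cells and 178 and 150.4 in WT cells at day 15. On it, day 8 gave 217 and 219.8 in KO cells and 317 and 208 in WT cells. On it, day 0 gave 351 and 270 in KO cells and 387 and 462 in WT cells. That day 0 log2 difference was -0.46 (adjusted p = 0.558 in limma), the lowest of the 24 at day 0, and did not pass. It was not seen on the brightest probe set. From day 8 to day 15 the second probe set fell in WT cells by 0.65 on the log2 scale (adjusted p = 0.0498), and its KO difference was -0.15 (adjusted p = 0.854).

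*Atr*, the kinase of single-stranded DNA and stalled forks, gave the only difference between KO and WT cells that passed, on 1 of its 3 probe sets. At day 0, *Atr* read 1144 and 1333 in KO cells, against 1003 and 1258 in WT cells. At day 8, *Atr* read 313 and 329 in KO cells, against 332 and 236 in WT cells. At day 15, *Atr* read 351 and 357 in KO cells, against 202 and 258 in WT cells. The KO and WT groups overlapped at days 0 and 8 and parted at day 15. The KO arrays of day 15 were both higher than both KO arrays of day 8, while the WT groups of days 15 and 8 overlapped. The log2 difference was 0.63 (SE 0.18, adjusted p = 0.0423) at day 15 in limma, after 0.14 (SE 0.18, adjusted p = 0.897) at day 0 and 0.20 (SE 0.18, adjusted p = 0.691) at day 8. This call was lost without any 1 of 3 day 15 arrays, with adjusted p = 0.181 without KO replicate 1, 0.148 without KO replicate 2 and 0.261 without WT replicate 1, where the difference was 0.46. Without WT replicate 2, the difference was 0.81 (adjusted p = 0.0302). In each of these fits 1 group holds a single array, whose spread is taken from the other groups. It was also lost with an offset of 32 added before the log (adjusted p = 0.0541), without trend or robust moderation (adjusted p = 0.0525) and in the methods' t-test (adjusted p = 0.368). The other *Atr* probe sets gave 0.14 (adjusted p = 0.705) and -0.07 (adjusted p = 0.867) at day 15. The first of them read 35.6 and 23.9 in KO cells and 27.1 and 26.0 in WT cells at day 15, under the array median. The other, above the array median on all later arrays, read 70.9 and 89.9 in KO cells and 81.0 and 86.3 in WT cells. At day 0 this other probe set differed by -0.44 (adjusted p = 0.51 in limma), with both KO arrays below both WT arrays. The change to day 15 of the brightest probe set was 0.14 (SE 0.18, adjusted p = 0.843) in KO cells and -0.29 (SE 0.18, adjusted p = 0.336) in WT cells, and neither passed. The difference between these changes was 0.44 (SE 0.26, adjusted p = 0.546).

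*Chek1*, which encodes the kinase that ATR activates, fell in WT cells between days 8 and 15 on 1 of its 5 probe sets. At day 0, *Chek1* read 1713 and 1614 in KO cells, against 1636 and 1814 in WT cells. At day 8, *Chek1* read 559.8 and 533 in KO cells, against 629 and 421 in WT cells. At day 15, *Chek1* read 466 and 379 in KO cells, against 326 and 376 in WT cells. These are values of the brightest probe set. Its log2 change to day 15 was -0.38 (SE 0.18, adjusted p = 0.477) in KO cells and -0.56 (SE 0.18, adjusted p = 0.0541) in WT cells, which passed among the brighter probe sets alone (adjusted p = 0.0425). A second probe set, with closer replicates, read 156 and 167 in KO cells, against 130.3 and 137 in WT cells at day 15. On it, day 8 gave 211 and 240.3 in KO cells, against 239.7 and 207 in WT cells. The arrays of day 15 lay below those of day 8 in each genotype. Its change was -0.48 (SE 0.12, adjusted p = 0.231) in KO cells and -0.74 (SE 0.12, adjusted p = 0.00279) in WT cells, so that the WT change passed, while the difference between them, 0.25 (95% interval -0.13 to 0.64, adjusted p = 0.63), did not. KO minus WT differences at day 15 were positive on all 5 *Chek1* probe sets, between 0.05 and 0.31, and did not pass on any. At day 0 they were negative on all 5, between -0.43 and -0.05, and did not pass on any. The other 3 probe sets changed by between -0.10 and 0.11 in KO cells and between -0.34 and -0.11 in WT cells from day 8 to day 15, with no call.

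*Chek2*, which encodes the kinase that ATM activates and whose promoter holds an E2F word and a CCAAT box, passed in no comparison. At day 0, *Chek2* read 969.8 and 838 in KO cells, against 938 and 1018 in WT cells. At day 8, *Chek2* read 522 and 425 in KO cells, against 501 and 351 in WT cells. At day 15, *Chek2* read 413 and 403 in KO cells, against 259.6 and 312 in WT cells. Both KO arrays were above both WT arrays at day 15, and WT day 15 was below WT day 8. The KO minus WT difference of 0.52 (SE 0.18, adjusted p = 0.0788) at day 15 and the WT change of -0.56 (SE 0.18, adjusted p = 0.0516) both missed the threshold in limma, and the WT change passed among the brighter probe sets alone (adjusted p = 0.0399). The change in KO cells was -0.21 (SE 0.18, adjusted p = 0.731).

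*Nbn* and *Mdc1* act at the break itself, NBN in the complex that finds DNA ends and MDC1 as the reader of phosphorylated histone H2AX. Neither passed in any comparison. At day 0, *Nbn* read 352 and 319 in KO cells, against 388 and 414 in WT cells. At day 8, *Nbn* read 363 and 340.2 in KO cells, against 455 and 324 in WT cells. At day 15, *Nbn* read 293 and 317 in KO cells, against 300.1 and 321 in WT cells. Both KO arrays were the lower ones at day 0, at a log2 difference of -0.26 (SE 0.15, adjusted p = 0.705), and the groups overlapped at days 8 and 15. The day 15 difference was -0.03 (95% interval -0.36 to 0.31, adjusted p = 0.947). At day 0, *Mdc1* read 967 and 802 in KO cells, against 968 and 979 in WT cells. At day 8, *Mdc1* read 295 and 310.1 in KO cells, against 339.8 and 249 in WT cells. At day 15, *Mdc1* read 303 and 286 in KO cells, against 312 and 339 in WT cells. Its KO arrays were below its WT arrays at day 15, at -0.14 (SE 0.15, adjusted p = 0.621). From day 8 to day 15 it differed by -0.04 in KO cells (adjusted p = 0.96) and by 0.16 in WT cells (adjusted p = 0.56), so that *Mdc1* and *Trp53bp1* were the genes whose brightest probe set was not lower at day 15 in WT cells.

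*Trp53bp1*, whose product limits the resection of DNA ends and favours end joining, differed little between the genotypes on its brightest probe set. At day 0, *Trp53bp1* read 1846 and 1588 in KO cells, against 1646 and 1912 in WT cells. At day 8, *Trp53bp1* read 1945 and 1879.8 in KO cells, against 2338 and 1699 in WT cells. At day 15, *Trp53bp1* read 2175 and 2226 in KO cells, against 2349.6 and 2111 in WT cells. The KO and WT groups overlapped on all 3 days, and the log2 difference at day 15 was -0.02 (95% interval -0.34 to 0.30, adjusted p = 0.962). The change from day 8 to day 15 was 0.20 (SE 0.14, adjusted p = 0.669) in KO cells and 0.16 (SE 0.14, adjusted p = 0.543) in WT cells. A dimmer probe set of the gene read 123 and 131 in KO cells, against 206 and 147 in WT cells at day 15. On it, day 8 gave 109 and 116 in KO cells, against 129 and 116 in WT cells. Both WT arrays of day 15 were the highest of these 8. Its difference was -0.46 (SE 0.16, adjusted p = 0.0907) at day 15, and its WT change was 0.51 (SE 0.16, adjusted p = 0.0523), which passed among the brighter probe sets alone (adjusted p = 0.0377). Without WT day 15 replicate 2, the difference was -0.70 (adjusted p = 0.015) and the WT change 0.76 (adjusted p = 0.00883), with a single WT array of day 15 whose spread is taken from the other groups. The remaining 4 probe sets gave KO minus WT differences between -0.31 and -0.10 at day 15, with no call, and 3 of them read between 26.0 and 82.7 on the 8 later arrays. At day 8, 2 of these 4 differed by -0.55 each (adjusted p = 0.320 and 0.321 in limma), and the rest by -0.11 and 0.15. From day 8 to day 15 the 4 changed by between -0.39 and 0.47 in KO cells, with no call.

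*Brca1* and *Brca2* carry recombination, BRCA1 by promoting end resection and BRCA2 by acting on the single-stranded DNA that resection leaves. At day 0, *Brca1* read 1274 and 1165 in KO cells, against 1293 and 1310.0 in WT cells. At day 8, *Brca1* read 496 and 510.5 in KO cells, against 648 and 477 in WT cells. At day 15, *Brca1* read 407 and 411 in KO cells, against 389 and 460.0 in WT cells. The groups overlapped at days 8 and 15, with a day 15 difference of -0.05 (95% interval -0.37 to 0.27, adjusted p = 0.881). From day 8 to day 15 it differed by -0.30 (SE 0.14, adjusted p = 0.492) in KO cells and -0.39 (SE 0.14, adjusted p = 0.0942) in WT cells, and neither passed. The *Brca1* probe set that passed in WT cells was the dimmest of its 4, under the array median on all 12 arrays, and read 14.0 and 13.3 at day 15, against 20.1 and 17.3 at day 8, with a log2 change of -0.45 (SE 0.14, adjusted p = 0.0487). In KO cells it read 18.6 and 18.7 at day 15, against 15.6 and 16.6 at day 8, and its KO minus WT difference at day 15 was 0.45 (SE 0.14, adjusted p = 0.0556). The other 3 *Brca1* probe sets gave day 15 differences between -0.24 and -0.05, so the probe sets of this gene did not share a sign.

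*Brca2* passed in no comparison. At day 0, *Brca2* read 1185 and 1336 in KO cells, against 1247 and 1409 in WT cells. At day 8, *Brca2* read 662 and 709.6 in KO cells, against 718 and 453 in WT cells. At day 15, *Brca2* read 576 and 608 in KO cells, against 443 and 441 in WT cells. At day 15 both KO arrays were above both WT arrays, at 0.42 (SE 0.18, adjusted p = 0.156), which did not pass. The day 8 difference of 0.27 (SE 0.18, adjusted p = 0.554) depended on the WT array used. Without WT day 8 replicate 1 it was 0.60, with a single WT array of day 8 whose spread is taken from the other groups. The change to day 15 was -0.21 (SE 0.18, adjusted p = 0.729) in KO cells and -0.37 (SE 0.18, adjusted p = 0.207) in WT cells.

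Ranks within an array are given for each day, with no test. A difference in rank between day 0 and later days cannot be told apart from the other intensity distribution of the day 0 arrays. The paper also maintained its ES cells on fibroblast feeders. The ranks are therefore not read as a course from day 0. By mean percentile of the group's arrays, *Trp53bp1* stood at 93.3, 96.7 and 97.2 at days 0, 8 and 15 in KO cells, and at 93.5, 96.6 and 97.2 in WT cells. *Nbn* stood at 74.7, 83.3 and 81.6 in KO cells, and at 77.6, 83.8 and 81.5 in WT cells. These were the genes whose percentile was higher at day 15 than at day 0 in both genotypes. *Atr* stood at 90.8, 82.1 and 83.6 in KO cells, and at 90.0, 79.4 and 77.0 in WT cells. *Chek1* stood at 93.1, 88.5 and 85.8 in KO cells, and at 93.3, 87.2 and 83.1 in WT cells. The other 5 genes also stood lower at day 15 than at day 0 in both genotypes, *Brca2* least, at 89.6 against 91.0 in KO cells.

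The 2 WT arrays of day 8 differed from each other for these genes. All 24 probe sets read higher on replicate 1 than on replicate 2, with a median log2 gap of 0.45 and a range of 0.01 to 0.79, where 51.4% of all probe sets read higher on replicate 1 and the median gap was 0.01. In the other groups replicate 1 was the higher one for 20 (KO) and 4 (WT) of the 24 at day 0, 11 (KO) at day 8, and 7 (KO) and 13 (WT) at day 15. The summed intensity of the 9 brightest probe sets was 5410.5 and 5272 on the KO arrays of day 8 and 6263 and 4476 on the WT arrays, so the KO arrays lay between the WT ones. The median KO minus WT difference of the 24 at day 8, -0.10 with both WT arrays, was 0.10 without replicate 1 and -0.28 without replicate 2, so its sign depended on the array. Genes of DNA replication and the other repair lists shared the gap. Replicate 1 was higher for 19 of 19 genes of DNA replication and mitosis (median 0.43), for 20 of 20 other genes of homologous recombination (median 0.48) and for 17 of 18 other checkpoint genes (median 0.37). On the same WT arrays, replicate 1 and then replicate 2, the summed intensity of 14 fibroblast markers was 12461 and 38364, of 14 pluripotency genes 21254 and 17246 and of 9 blood and endothelial markers 944 and 1982. Their part in the gap was not tested. In bulk samples, fewer cells of a type and less RNA per cell cannot be told apart.

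**Figure D4:**
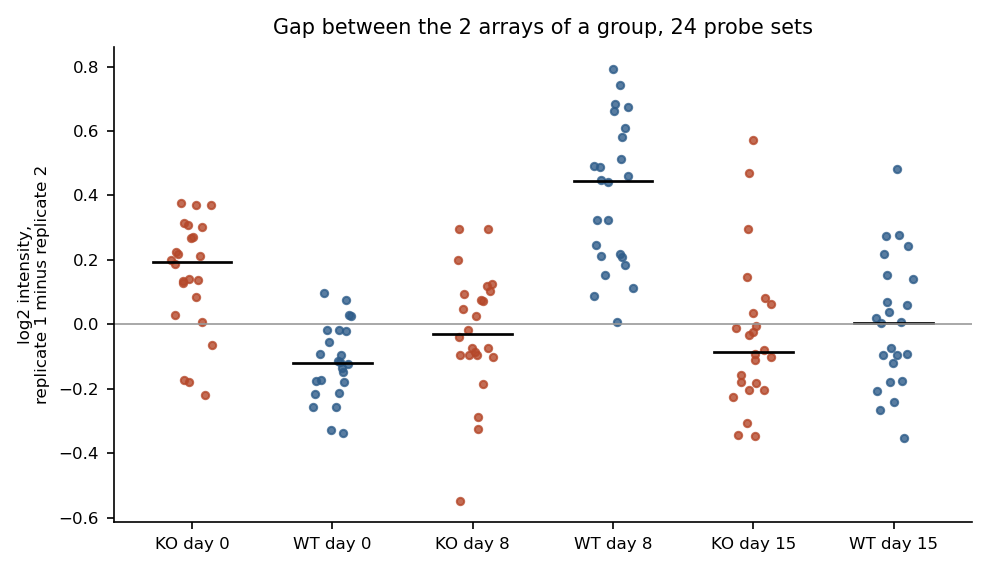
Log2 intensity of replicate 1 minus replicate 2 (y axis) for the 24 probe sets in each of the 6 groups (x axis); points are probe sets and black lines are medians. In WT cells at day 8 all 24 points lie above 0, with a median of 0.45.

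The count of probe sets that fell in WT cells followed this pair of arrays. Leaving out 1 array leaves that group with a single array, which is then assumed to vary like the arrays of the other groups. Without WT day 8 replicate 2, 10 of the 24 were lower at day 15, namely both of *Atm*, 3 of *Chek1*, 2 of *Brca1* and those of *Chek2*, *Brca2* and *Nbn*, where 20.4% of all probe sets passed in that fit. The brightest *Chek1* probe set then differed by -0.85 (adjusted p = 0.00213) and *Chek2* by -0.82 (adjusted p = 0.00455). Without WT day 8 replicate 1, 2 of the 24 were called, *Atm* at -0.55 (adjusted p = 0.0233) and *Chek1* at -0.63 (adjusted p = 0.0129), where 11.7% of all probe sets passed. The same *Atm* and *Chek1* probe sets were also called when either WT array of day 15 was left out, at -0.72 and -0.70 without replicate 1 and at -0.57 and -0.77 without replicate 2. The calls of the second *Atm* probe set and of the dim *Brca1* probe set were lost in 3 of these 4 settings. With the spread taken from the 4 WT arrays of days 8 and 15 alone, 0 of the 24 passed, and 0.815% of all probe sets did. A fit of the brighter probe sets alone leaves out the dimmer ones of the 24, and 28.8% of the 22519 in it passed. In it 5 were lower, both of *Atm*, 2 of *Chek1* and that of *Chek2*, and 1 of *Trp53bp1* was higher. The difference in the change of the brightest *Atm* probe set was 0.48 (adjusted p = 0.253) without WT day 8 replicate 1 and 0.67 (adjusted p = 0.0606) without replicate 2.

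Related genes were read from lists of other pathway members, 1 brightest probe set per gene. Over all probe sets, 12.9% passed at day 15, 16.0% in the WT change and 0.02% in the KO change. In the fit of the brighter probe sets alone, 22.1% passed at day 15 and 28.8% in the WT change. The counts of the checkpoint, recombination and end joining lists stood near or under these shares of the brighter probe sets. Of 18 other checkpoint genes, 0 passed in KO against WT cells at day 15 (median log2 difference 0.10), and 6 were lower at day 15 than at day 8 in WT cells (median -0.34). These included *Mre11a*, the nuclease that partners NBN, at -0.98, *Rad1* and *Hus1*, of the clamp that activates ATR, at -0.66 and -0.54, and *Tipin*, of the replication fork, at -0.60. In KO cells 0 of 18 passed (median -0.13). Of 20 other recombination genes measured, 2 were higher in KO cells at day 15, *Fancd2* at 0.59 and *Fanci* at 0.49, the paired proteins of crosslink repair. *Rpa3*, a subunit of the single-strand binding complex, was lower at -0.79, and the median was 0.21. In WT cells 7 of the 20 were lower at day 15 than at day 8 (median -0.33), among them the resection nucleases *Exo1* at -0.96 and *Dna2* at -0.84, the BRCA1 partner *Bard1* at -0.84 and *Rad54l*, a motor protein of recombination, at -0.70. The *Bard1* probe set was dim. In WT cells it read 22.2 and 23.8 at day 15, against 53.9 and 31.6 at day 8. Of these values, only that of WT day 8 replicate 1 lay above its array median. In KO cells 0 of 20 passed (median -0.22).

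Of 14 genes of end joining, 2 were higher in KO cells at day 15 (median 0.26), where 12.9% of all probe sets passed. *Rif1*, which acts with the product of *Trp53bp1* at DNA ends and is abundant in ES cells, was higher by 0.98, and *Parp1*, the poly(ADP-ribose) polymerase, by 0.47. In WT cells 4 were lower at day 15 than at day 8 (median -0.30), *Rif1* at -0.92, *Xrcc5* at -0.68, *Lig4* at -0.67 and *Paxip1* at -0.51, while in KO cells 0 passed (median -0.19). Of 19 genes of DNA replication and mitosis, *Mcm7* (0.55) and *Mcm5* (0.54), both of the replicative helicase, were higher in KO cells at day 15 (median 0.22). Of the same 19, 12 were lower at day 15 than at day 8 in WT cells (median -0.53), and 0 in KO cells (median -0.22). The 9 genes described here had medians of 0.26 at day 15 for KO minus WT cells, -0.21 for the change in KO cells and -0.37 for that in WT cells over their brightest probe sets. At days 0 and 8, and for the difference between genotypes in the change, 0 genes of these 4 lists passed. The counts in WT cells depended on the WT arrays of day 8. Without replicate 1, 3 of 18 other checkpoint genes, 1 of 20 recombination genes, 2 of 14 end joining genes and 10 of 19 genes of replication and mitosis were lower at day 15. Without replicate 2, the counts were 9 of 18, 14 of 20, 8 of 14 and 16 of 19. For the difference in the change, 0 genes of these lists passed without replicate 1, and 1, 3, 0 and 8 were positive and passed without replicate 2. At day 8, 0, 4, 1 and 4 were higher in KO cells without replicate 1, and without replicate 2 only 1 gene of replication and mitosis passed, lower in KO cells. Targets of p53, the transcription factor downstream of the checkpoint kinases, were also read. Of 13 measured, 7 were higher in KO cells at day 15 and 0 lower (median 0.72), among them *Perp* at 1.35, *Mdm2* at 1.16, *Trp53inp1* at 1.13 and *Btg2* at 1.12. In WT cells 4 of these 13 were lower at day 15 than at day 8 and 1 higher (median -0.49), and in KO cells 0 passed (median 0.21). Of the targets, 6 were lower in WT cells without WT day 8 replicate 1 and 3 without replicate 2.

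**Figure D5:**
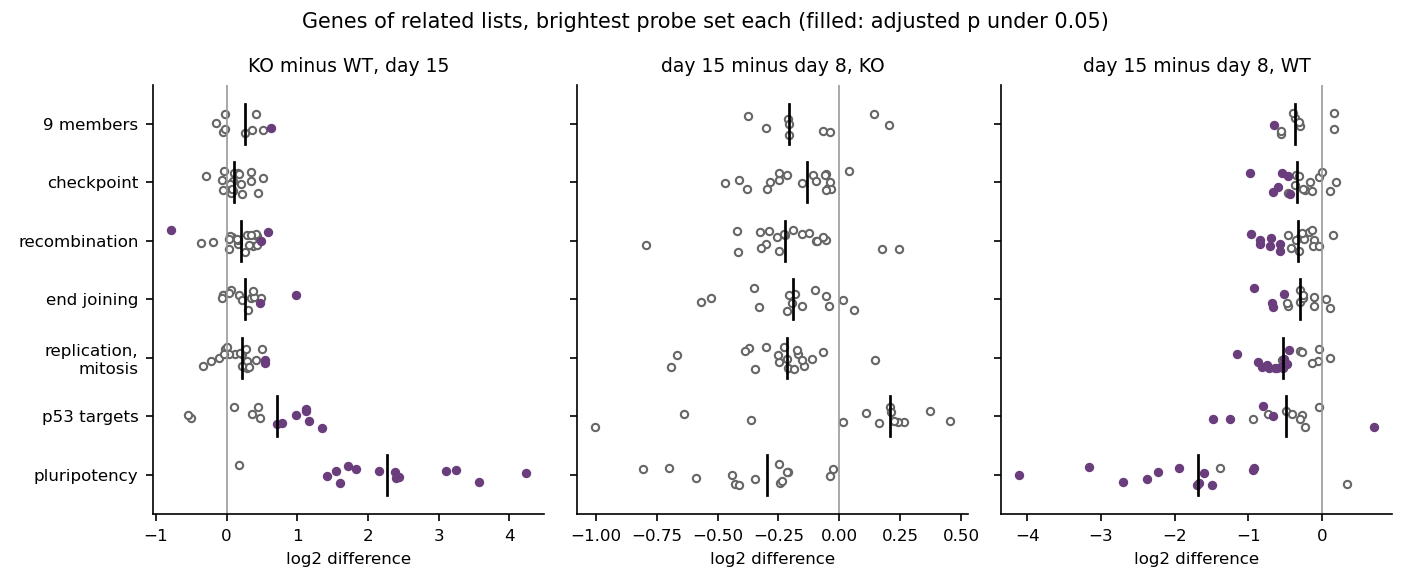
Log2 difference (x axis, a scale of its own in each panel) of the brightest probe set of each gene for the 9 genes described here and for 6 other lists (rows); black lines are list medians and filled points have an adjusted p under 0.05 in limma. The median of the 9 genes is 0.26 for KO minus WT cells at day 15, -0.21 for the KO change and -0.37 for the WT change, next to 2.27, -0.30 and -1.68 for the pluripotency genes.

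Cell states differed between the groups at the same time. The summed intensity of 14 pluripotency genes at day 15 was 23890.1 and 22199 on the KO arrays and 3487 and 9901 on the WT arrays, and 13 of the 14 were higher in KO cells. That of 14 fibroblast markers was 15907 and 22861 on the KO arrays and 93491 and 70004 on the WT arrays, with 9 of 14 lower in KO cells. For the 19 genes of DNA replication and mitosis it was 36619 and 37225 in KO cells and 31436 and 32416 in WT cells. Endoderm markers (7 of 10) and markers of blood and endothelium (7 of 9) were lower in KO cells, and neural markers (4 of 8) were higher. The part of these differences in the values of *Atr* and of the others was not tested. At day 0 the pluripotency genes summed to 77798 and 80724 in KO cells and 75885 and 75445 in WT cells, with 0 of 14 called, and fibroblast markers to 10667 and 17106 in KO cells and 6108 and 9389 in WT cells.

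The genes whose course over the 8 arrays of days 8 and 15 was most like that of *Atr* were *Rasgrp4*, *Dll1* and *Kif18b*, with root mean square distances of 0.07, 0.07 and 0.08 between log2 profiles centred on their own means, among 11670 genes searched. For *Atm* they were *Utp3*, *Traf3ip1* and *Rab23*, at 0.07 each. Mean intensities of *Kif18b* at day 15 were 561 in KO cells and 395 in WT cells, and at day 8 they were 543 in KO cells and 492 in WT cells. Those of *Utp3* at day 15 were 1169 in KO cells and 935 in WT cells, and at day 8 they were 1279.8 in KO cells and 1396 in WT cells.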

How the data were processed

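Total RNA of 12 samples was hybridised to 12 arrays, 2 per group of genotype and day. The authors deposited a linear intensity, scaled within each array, for every probe set. MAS5 is the tool in the submitters' processing notes, and the sources used here give no version or settings for it. The file holds 45101 probe sets, of which 64 manufacturer controls were left out. Of the 45037 tested, 34945 carry 1 gene symbol, 932 several and 9160 none. Intensities were floored at 1, taken to log2 and fitted with limma 3.58.1 (statmod 1.5.0, R 4.3.3), with 1 mean per group over all 12 arrays, an intensity trend and robust moderation. Benjamini-Hochberg adjustment of the two-sided p-values ran over all 45037 probe sets, with 0.05 as threshold. The fit was also run on simulated data, with independent noise per probe set and planted changes of 1.8-fold or more. That simulation holds no gap shared by many probe sets. It therefore cannot show how the fit handles arrays such as those of WT day 8. Array precision is limited by the number of arrays. Every probe set of the 9 genes is counted, with values of those other than the brightest given in part. Of other lists the genes that passed are named, up to 4 in each direction per list and comparison, by size of the log2 difference. Members and lists were chosen with earlier results of these data known. Some listed genes were not analysed here. Promoters came from RefSeq tables. Alternatives were an offset of 32, quantile normalization, a plain moderation with neither trend nor robustness, the replicate number as a block, the brighter probe sets alone, a fit of only the arrays compared, the mean over the probe sets of a gene, the methods' t-test, the 1.8-fold rule, and each array left out in turn. The other software was Python 3.11.15 with matplotlib 3.10.9 for plots, and numpy 2.4.6 and pandas 2.3.3 for tables.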

Additional observations from a re-analysis of the deposited data

How the results depend on the processing

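At day 0, for the change in KO cells and for the difference between the genotypes in the change, 0 of the 24 probe sets passed in every alternative run. For KO against WT cells at day 15, where 1 passed, the count was 0 with the offset of 32, 0 without trend or robust moderation, 0 in the methods' t-test after adjustment (4 at an unadjusted p under 0.05), 0 by the 1.8-fold rule and 0 of 9 genes by the mean over the probe sets of a gene. It was 2 after quantile normalization, *Atr* at 0.69 (adjusted p = 0.026) and *Atm* at 0.40 (adjusted p = 0.0499), and between 0 and 2 with 1 array left out. For the change in WT cells, where 4 passed, the count was 2 with the offset of 32, 2 with the replicate block, 0 with only the arrays compared, 0 in the methods' t-test after adjustment (2 unadjusted), 0 by the 1.8-fold rule, 6 among the brighter probe sets (5 lower and 1 higher) and between 2 and 10 with 1 array left out. At day 8, where 0 passed, it was 0 in the alternatives other than leaving out WT replicate 1, which gave 1, so the range over arrays left out was 0 to 1. The fit of the brighter probe sets holds only those of the 24 that lie in the brighter part. The causes were not tested. Counts of the other lists without each WT day 8 array were added after seeing the data.

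Same-numbered arrays of KO and WT cells correlated at 0.01, 0.04 and -0.06 in their deviations from the group means at days 0, 8 and 15. Correlations over all probe sets cannot show whether these arrays share a culture or a run. With the replicate block, *Atr* at day 15 had an adjusted p of 0.0486, and over all probe sets 3 passed at day 0, against 22 without it. Over all probe sets, counts also moved by more than 1.5 times in other settings. At day 0 they were 293 with the offset, 121 after quantile normalization, 13 without trend or robust moderation, 0 among the brighter probe sets, 1 with only the arrays compared, and 27 to 673 with 1 array left out. At day 8, 508 passed, against 0 with only the arrays compared and 5 to 2625 with 1 array left out. At day 15, 5807 passed, against 1720 to 5831 with 1 array left out. For the change in WT cells 7227 passed, against 367 with only the arrays compared and 3598 to 9202 with 1 array left out. For the change in KO cells 9 passed, against 1273 with only the arrays compared, 2 among the brighter probe sets, 5 without trend or robust moderation and 0 to 5 with 1 array left out. For the difference in the change 190 passed, against 29 with only the arrays compared, 122 after quantile normalization, 89 among the brighter probe sets and 14 to 1730 with 1 array left out. The split of calls moved with the scaling. At day 0, 10 were higher in KO cells and 12 lower, against 22 and 99 after quantile normalization. In the KO change, 8 were higher and 1 lower, against 5 and 2 with the offset. In the difference, 62 were positive and 128 negative, against 33 and 125 with the offset and 28 and 94 after quantile normalization. By genes, with the mean over probe sets, 5, 301, 3153, 3920, 2 and 148 of 18193 passed at days 0, 8 and 15, in the WT change, in the KO change and in the difference. The methods' t-test gave 3769, 3864 and 6541 at an unadjusted p under 0.05 at days 0, 8 and 15, 4770 in the WT change and 4697 in the KO change, and after adjustment 2 at day 0 and 0 in the others. The 1.8-fold rule took 510, 1029 and 2829 at days 0, 8 and 15, 2989 in the WT change and 426 in the KO change.

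With 2 arrays a group, and 6 to 8 of the 24 probe sets under the array median in each group, small differences and dim probe sets limit what can be seen.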
